A study of Mus musculus with 2 samples.

Results

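The respiratory chain genes described here are the nuclear genes for subunits of NADH dehydrogenase (complex I), succinate dehydrogenase (complex II), the cytochrome bc1 complex (complex III), cytochrome c oxidase (complex IV) and ATP synthase (complex V). They were chosen by gene name alone: symbols beginning Nduf with a subunit letter and number, Sdha to Sdhd, Uqcr, Cyc1, Cox4 to Cox8 and Atp5. Of 34400 gene identifiers in the 2 count tables, 102 matched, 97 of them in both tables. Genes of subunits made up 84 of these, with 36 in complex I, 4 in complex II, 9 in complex III, 18 in complex IV and 17 in complex V. Ndufa4 and its paralog Ndufa4l2 were counted with complex IV. The other 18 were pseudogenes, gene copies or a readthrough model that overlaps Atp5o. This split went by symbol. Ndufb1, counted as a subunit, is annotated as the lncRNA Ndufb1-ps, and Cox5b-ps, counted as a copy, as protein-coding.

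The measurements were UMI counts, which count captured RNA molecules, from single cells of mouse colon tumours grown from CT26, an established mouse colon carcinoma line injected at the cecal junction. There was 1 library for control (anti-IgG) and 1 for SLC7A11-Ab, an antibody against the cystine transporter subunit SLC7A11. Dosing was 10 mg/kg with an interval of 2 days, and began once tumours measured 50 to 100 mm³. The labels give no strain, sex or age, and do not say how many mice went into a library. Both groups carried the same tumour line, and the control antibody was the background for every value of the SLC7A11-Ab library (called the antibody library here). The control library held 13910 barcodes and 129044329 UMIs and the antibody library 12153 barcodes and 143658800 UMIs. After the cell filter and doublet removal, 12326 and 10897 cells remained. The libraries shared 39 barcodes. Since each group is a single library, differences could not be set against replicate spread, and no p-value is given. Intervals cover counting error only, except those of members' medians, which come from the spread among members.

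Electrons from NADH and succinate enter the chain at complexes I and II, pass through ubiquinone to complex III and through cytochrome c to complex IV, where oxygen is reduced. The proton gradient that complexes I, III and IV build drives ATP synthase. Most subunits are encoded in the nucleus, a core set in mitochondrial DNA, and some complex IV subunits have paralogs known for use in particular tissues or under low oxygen. Tumours are known to vary in how far they rely on this chain or on glycolysis.

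Cells were put in classes by UMIs of marker genes. The tumour-gated cells (5766 control, 3889 antibody) had at least 1 keratin UMI, no UMI of 4 Y-linked genes and few host markers. The labels give the cell type as goblet cells. The goblet markers went against that, with 4 and 4 UMIs of Muc2, 0 and 2 of Tff3 and 0 and 1 of Agr2 over all cells. Fcgbp had 4 and 3 UMIs, Spdef 25 and 21 and Clca1 36 and 49, also scarce. Epcam had 3 and 9 UMIs. The gate therefore rested mainly on Krt20 and Krt18, and the class is called tumour-gated throughout. Macrophages numbered 897 and 1070, T cells 183 and 811, NK cells 49 and 143, neutrophils 134 and 207 and fibroblasts 77 and 108. Their median depths differed widely, from 658.5 UMIs in control neutrophils to 17613 in tumour-gated cells of the antibody library (11132 in the control). Macrophage marker UMIs in tumour-gated cells came to 41.1 and 105 CPM (the usual scaling of a count to the summed UMIs of its class), against 23503 and 21910 CPM in macrophages, and T cell marker UMIs to 2.79 and 15.99 CPM. The part of such foreign RNA in the ratios below was not tested.

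Promoter windows are shown for Ndufv3, Cox7a1 and Ndufa4, which are 3 of the 6 genes at the ends of the ordering in hypoxic tumour cells described below, and for Cox5a. Ndufa4l2, first in that ordering, was not in the promoter table. Each is the 120 bases just before the RefSeq transcription start (build GRCm38.p6), written 5′ to 3′ on the gene's strand, with the hypoxia response core ACGTG or GCGTG, on either strand, in capitals. Ndufv3, an accessory complex I subunit, lies at chr17:31519995-31520114 on the plus strand. Cox7a1, the muscle-type isoform of a complex IV subunit, lies at chr7:30184051-30184170 on the plus strand. Ndufa4 lies at chr6:11907451-11907570 on the minus strand and Cox5a at chr9:57521112-57521231 on the plus strand.
Ndufv3: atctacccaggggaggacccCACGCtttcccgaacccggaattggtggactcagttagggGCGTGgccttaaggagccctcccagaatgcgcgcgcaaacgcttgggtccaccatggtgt
Cox7a1: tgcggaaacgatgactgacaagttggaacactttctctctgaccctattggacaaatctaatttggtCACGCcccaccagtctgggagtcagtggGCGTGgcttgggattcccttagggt
Ndufa4: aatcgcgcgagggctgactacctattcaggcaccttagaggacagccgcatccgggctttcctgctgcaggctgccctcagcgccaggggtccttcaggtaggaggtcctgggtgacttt
Cox5a: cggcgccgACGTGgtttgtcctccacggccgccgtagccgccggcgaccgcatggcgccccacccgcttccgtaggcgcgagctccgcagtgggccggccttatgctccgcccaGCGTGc
The windows of Ndufv3, Cox7a1 and Cox5a each held 2 matches and that of Ndufa4 held 0. A match is a description of the letters only. Over the 250 bases before the start, 68 of the 84 subunit genes had a RefSeq promoter in the table used. The hypoxia core was in 36 of 68 (52.9%), against 38.6% of all 27025 promoters. The NRF1 core, for a factor known for activating respiratory chain genes, was in 12 of 68 (17.6%) against 3.86%. The ETS core CCGGAA, bound by the related activator GABP among others, was in 19 of 68 (27.9%) against 12.2%, each searched on both strands. The median GC content of the members' promoters was 56.4%, against 52.0% over all promoters.

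The first comparison was of the level of the chain across cell classes. In tumour-gated cells the members took 1.90% of the control and 1.94% of the antibody UMIs. T cells had 1.73% and 1.98%, macrophages 1.69% and 1.84%, NK cells 1.73% and 1.69% and fibroblasts 1.55% and 1.51%. Neutrophils, which are known to rely on glycolysis, stood apart with 0.598% and 0.796%. These 2 values were the lowest of all 12, and the other 10 lay between 1.51% and 1.98%. Per cell, the median share was 0.542% and 0.656% in neutrophils and 1.86% and 1.89% in tumour-gated cells. The neutrophil level moved with the choice of cells. Without doublet removal members had 1187 of 136299 UMIs in control and 1718 of 206926 in antibody neutrophils. The share was then slightly lower in the antibody library, so the order of the libraries turned. Under the stricter cell filter, which left 8 and 24 neutrophils, they had 101 of 11662 and 503 of 42921 UMIs. Over all classes and complexes, levels without doublet removal were 0.78 to 1.60 times those given here.

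**Figure D1:**
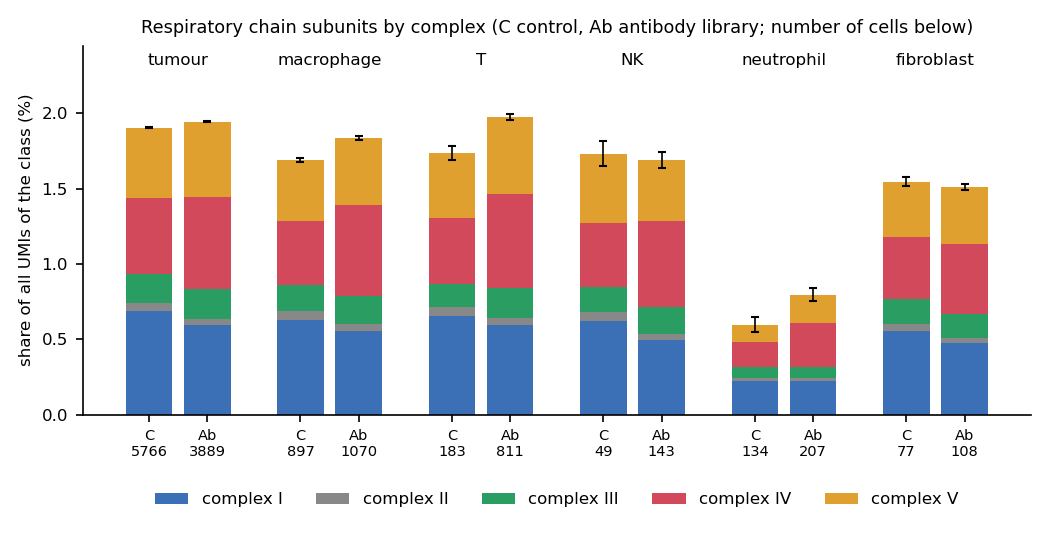
Share of all UMIs (percent, vertical axis) taken by the members of each complex (stacked colours) in 6 cell classes of the control and the antibody library, with the exact Poisson 95% interval of the total as a bar and cell numbers under each column. Neutrophils were lowest in both libraries, at 0.598% and 0.796%, and tumour-gated cells were at 1.90% and 1.94%.

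The lower level in neutrophils ran through all 5 complexes, in sums that hold every member. Complex I took 0.223% and 0.225% of the UMIs of neutrophils and 0.687% and 0.593% in tumour-gated cells of the control and the antibody library. Complex II took 0.0216% and 0.0177% against 0.0559% and 0.0387%, and complex III 0.0719% and 0.0761% against 0.193% and 0.202%. Complex IV took 0.166% and 0.288% against 0.502% and 0.611%, and complex V 0.116% and 0.189% against 0.466% and 0.499%. With the main cell filter and doublet removal, the Poisson intervals of neutrophils and tumour-gated cells did not overlap for any complex in either library. The neutrophil level moved with these choices, as given above. Cox4i1, the common isoform of the largest nuclear complex IV subunit, had 411 and 392 CPM in neutrophils and 1299 and 898 CPM in tumour-gated cells. Atp5b, the catalytic beta subunit of ATP synthase, had 92.5 and 281 CPM in neutrophils and 445 and 982 CPM in tumour-gated cells. Both genes were lower in neutrophils in each library.

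Transcripts of the mitochondrially encoded subunits were set beside the nuclear ones as the ratio of their summed UMIs. Among the 6 classes compared it was highest in tumour-gated cells, at 0.451 and 0.402, and was 0.282 and 0.272 in macrophages, 0.2497 and 0.227 in T cells, 0.253 and 0.224 in NK cells, 0.301 and 0.217 in neutrophils and 0.270 and 0.311 in fibroblasts. This ratio was lower in the antibody library in 5 of these 6 classes and higher in fibroblasts. A lower ratio need not mean fewer mitochondrially encoded transcripts. Their median log2 ratio of antibody over control was 0.13 in macrophages, 0.13 in T cells and 0.26 in fibroblasts. It was -0.18 in tumour-gated cells, -0.36 in NK cells and -0.015 in neutrophils. The nuclear sums include Cox5a, which is set apart below. In macrophages Cox5a made up 66 of 58218 control and 5590 of 119679 antibody member UMIs. Without Cox5a the macrophage ratio would not be lower in the antibody library. Gates of few cells ran higher: 24 and 20 endothelial cells had 0.625 and 0.465, and 10 and 11 B cells 1.28 and 0.458. The cell filter on mitochondrial UMIs bears on this ratio.

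The second comparison was between the libraries within each class. Ratios are antibody over control on the log2 scale, from CPM with a prior count of 0.5, for members with at least 20 UMIs over both libraries. All classes share the same control and antibody libraries, so they are not independent of each other. In tumour-gated cells 90 members were measured, and their median log2 ratio was -0.13 (order-statistic 95% interval -0.24 to 0.03), beside -0.16 for all 17750 genes measured. The medians elsewhere were -0.06 in macrophages (87 members), 0.06 in T cells (79), -0.26 in NK cells (72), 0.30 in neutrophils (37) and -0.18 in fibroblasts (80), where all genes had -0.15, -0.15, -0.09, -0.01 and -0.15. The neutrophil value was -0.26 without doublet removal, so its sign turned with that step.

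The share of members with at least 2-fold higher values lay near the background in all classes but neutrophils, where the counts turned on the settings. In tumour-gated cells 11 members (12.2%) were at least 2-fold higher in the antibody library, against 11.5% of all genes, and 1 was at least 2-fold lower, against 4.2%. Macrophages had 10 higher (all genes 9.3%) and 1 lower (4.6%). T cells had 10 higher (all genes 10.9%) and 0 lower (8.13%), and fibroblasts 10 higher (all genes 10.3%) and 2 lower (5.42%). NK cells had 8 higher (all genes 12.3%) and 6 lower (6.7%). Neutrophils, with 37 members measured, had 11 higher (all genes 16.0%) and 0 lower (6.54%). Those neutrophil counts became 8 higher and 7 lower without doublet removal, 21 and 8 with no count minimum, and 1 and 0 with a minimum of 100 UMIs. Cox5a, Cox5b, Cox8a, Cyc1, Uqcrfs1, Ndufb2 and Atp5d were among those at least 2-fold higher in each class but neutrophils, where Cyc1, Uqcrfs1 and Ndufb2 had too few UMIs. Cox5a, Cox5b, Cox8a and Atp5d were at least 2-fold higher in each of the 6 classes. They were 4 of the 37 members measured in all 6, against 5.04% of all genes measured in all 6 (60 of 1191).

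**Figure D2:**
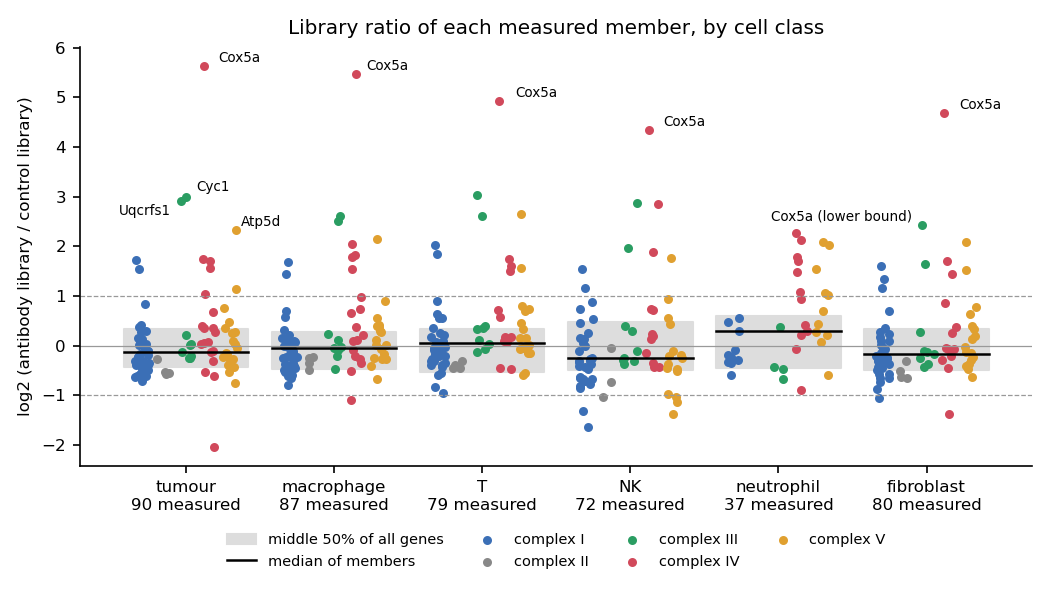
Log2 ratio of antibody over control (vertical axis) for each measured member in 6 cell classes, coloured by complex, with the members' median as a black line, the middle 50% of all genes in grey and dashed lines at 2-fold. Cox5a is the highest point in each class, at 5.63 in tumour-gated cells, and in neutrophils it is drawn as a lower bound of 2.27.

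Cox5a, a nuclear subunit of complex IV (chr9:57521274-57532426, plus strand, mm10), is set apart because of the size of its difference. It had 833 UMIs in control and 44613 in antibody tumour-gated cells, or 11.8 and 588 CPM, a 49.6-fold difference (log2 5.63, 95% interval 5.53 to 5.73). Macrophages had 66 and 5590 UMIs (19.2 and 857 CPM), T cells 7 and 1702 (22.4 and 728 CPM), NK cells 2 and 132 (20.7 and 524 CPM) and fibroblasts 8 and 448 (12.2 and 333 CPM). Control neutrophils had 0 UMIs and antibody neutrophils 27, at least 4.83-fold higher against a floor of 3 UMIs for the class sum. The control was low and the antibody library high in host and tumour classes alike. In tumour-gated cells Cox5a stood 23rd of 13291 genes with at least 100 UMIs when ordered by the ratio, so 22 other genes had larger ratios there. Over all barcodes the largest count in 1 barcode was 5 for the control and 174 for the antibody library.

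The neighbours of Cox5a did not share the size of its difference. Fam219b, the nearest protein-coding gene downstream, had 203 and 475 UMIs in tumour-gated cells (log2 1.11). The lncRNA Gm26631, on the other strand and overlapping the end of Cox5a, had 41 and 106 UMIs (log2 1.2496). Both were over 2-fold higher in the antibody library. Mpi and Scamp2, farther downstream, had log2 ratios of -0.45 and -0.48. Leaving out Cox5a left the members' median in tumour-gated cells at -0.13 to 2 decimals and moved the complex IV median from 0.28 to 0.17. Whether both tables were counted against the same annotation is not given in the sources used here. Of the gene identifiers, 28526 were in both tables, 3106 in the control table only and 2768 in the antibody table only, and each table listed Cox5a, Cyc1, Uqcrfs1 and Tomm20 under 1 shared identifier. A difference in counting could not be told apart from one in RNA level for these genes and others far higher in the antibody library, and what sets their low control counts was not tested.

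By complex, the share of complex I in the members' UMIs was lower and that of complex IV higher in the antibody library in each class. Such a share also depends on the other complexes and can fall without a lower level. In neutrophils the summed measured complex I members had a log2 ratio of -0.115, with an interval (-0.44 to 0.21) that spanned 0. In tumour-gated cells complex I took 36.1% of the control's member UMIs and 30.5% of those in the antibody library. It went from 37.6% to 30.2% in T cells, from 37.1% to 30.1% in macrophages, from 35.8% to 29.5% in NK cells, from 37.3% to 28.2% in neutrophils and from 35.8% to 31.5% in fibroblasts. Complex IV took 26.4% and 31.4% in tumour-gated cells. It went from 25.01% to 31.4% in T cells, from 25.3% to 32.9% in macrophages, from 24.4% to 33.7% in NK cells, from 27.7% to 36.2% in neutrophils and from 26.5% to 30.6% in fibroblasts. Without Cox5a the complex IV share was 26.3% and 29.3% in tumour-gated cells, 26.5% and 29.0% in fibroblasts and 24.4% and 31.6% in NK cells. The summed complex IV level, as a log2 ratio, went from 0.28 to 0.14 in tumour-gated cells, from 0.50 to 0.28 in macrophages and from 0.17 to 0.065 in fibroblasts (interval -0.0012 to 0.13) when Cox5a was left out. These sums still hold Cox8a and Cox5b, at least 2-fold higher in all 6 classes, while Cox4i1 was below 0 in all 6. The higher complex IV share is therefore not a shift of all its members. Complex V had no common direction, with 24.5% and 25.7% in tumour-gated cells but 26.5% and 23.8% in NK cells. Complex III took 10.2% and 10.4% in tumour-gated cells, and 12.0% and 9.57% in neutrophils.

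In complex I, 27 of 39 measured members were below 0 in tumour-gated cells, where 60.8% of all genes were. The median log2 ratio was -0.31 there, with a range from -0.71 to 1.73, beside -0.16 for all genes. In macrophages 25 of 38 (all genes 61.3%) and in T cells 22 of 37 (all genes 59.6%) were below 0, with medians of -0.19 and -0.075 beside -0.15 for all genes in both, so these 2 classes lay near the background. In NK cells 22 of 32 (all genes 55.6%), in neutrophils 7 of 10 (50.4%) and in fibroblasts 26 of 37 (59.5%) were below 0, with medians of -0.31, -0.21 and -0.24. Ndufv1, which carries the NADH-binding site, had 93.9 CPM in the control and 59.3 in the antibody tumour-gated cells (log2 -0.66, interval -0.72 to -0.61). Ndufs1, the largest iron-sulphur subunit of the electron input arm, had 50.5 and 33.1 CPM (log2 -0.61). Ndufb9, an accessory subunit of the membrane arm, had 500 and 306 CPM (log2 -0.71), the lowest value in the complex. Both core subunits and the accessory one were lower in the antibody library. Ndufb9, Ndufb7, Ndufb8, Ndufa7 and Ndufs7 were below 0 in all 6 classes. Ndufs7 and Ndufs8 are core iron-sulphur subunits. Ndufs8 was among the 3 lowest members with at least 100 UMIs in macrophages (log2 -0.80) and fibroblasts (-1.05), and Ndufs7 in T cells (-0.84). Ndufv1 was also among the 3 lowest in macrophages (-0.65), and Ndufa13 (-0.72) and Ndufb7 (-0.82) in NK cells.

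The other 12 complex I members in tumour-gated cells were above 0. Ndufb2, an accessory membrane-arm subunit, had 37.6 and 124 CPM in tumour-gated cells (log2 1.73). It was at least 2-fold higher in tumour-gated cells, macrophages, T cells, NK cells and fibroblasts, with log2 ratios from 1.54 to 2.02. Ndufa10 had a log2 ratio of 0.83 in tumour-gated cells and of 1.16 in fibroblasts. The row Ndufa12-ps had more UMIs than Ndufa12 itself, 6806 against 4861 in control tumour-gated cells, so the level of this subunit is uncertain.

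Complex II, which oxidises succinate and is also an enzyme of the citric acid cycle, was lower in the antibody library throughout. In tumour-gated cells Sdha, the flavoprotein that oxidises succinate, had 110 and 74.97 CPM (log2 -0.55). Sdhb, the iron-sulphur subunit, had 223 and 149 CPM (log2 -0.58). The membrane anchors Sdhc and Sdhd had log2 ratios of -0.54 and -0.28. All 4 genes were below 0 in tumour-gated cells, macrophages, T cells and fibroblasts, as were the 3 measured in NK cells, and 0 reached 20 UMIs in neutrophils. The medians were -0.55, -0.29, -0.42, -0.58 and -0.72 in tumour-gated cells, macrophages, T cells, fibroblasts and NK cells. In the same order, all genes had medians of -0.16, -0.15, -0.15, -0.15 and -0.09. The shares of all genes below 0 were 60.8%, 61.3%, 59.6%, 59.5% and 55.6%. Of the 5 complexes it had the lowest median in each of these 5 classes.

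Complex III was split. Cyc1, the cytochrome c1 subunit, had 1151 UMIs in control and 9912 in antibody tumour-gated cells, or 16.4 and 131 CPM (log2 2.996, interval 2.91 to 3.09). Uqcrfs1, the Rieske iron-sulphur protein, had 963 and 7860 UMIs, or 13.7 and 104 CPM (log2 2.92, interval 2.82 to 3.02). These are the 2 electron-carrying nuclear subunits of the complex, and both were far higher in the antibody library. The other 7 members ran from -0.25 to 0.21, among them the core protein Uqcrc1 with 70.2 and 81.1 CPM (log2 0.21). Cyc1 had log2 ratios of 2.52 in macrophages, 3.03 in T cells and 1.64 in fibroblasts, and Uqcrfs1 2.62 in macrophages, 2.61 in T cells and 2.42 in fibroblasts. In NK cells the values were 2.87 and 1.96 from few UMIs. In neutrophils both were at 0 UMIs in the control and under the count minimum.

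**Figure D3:**
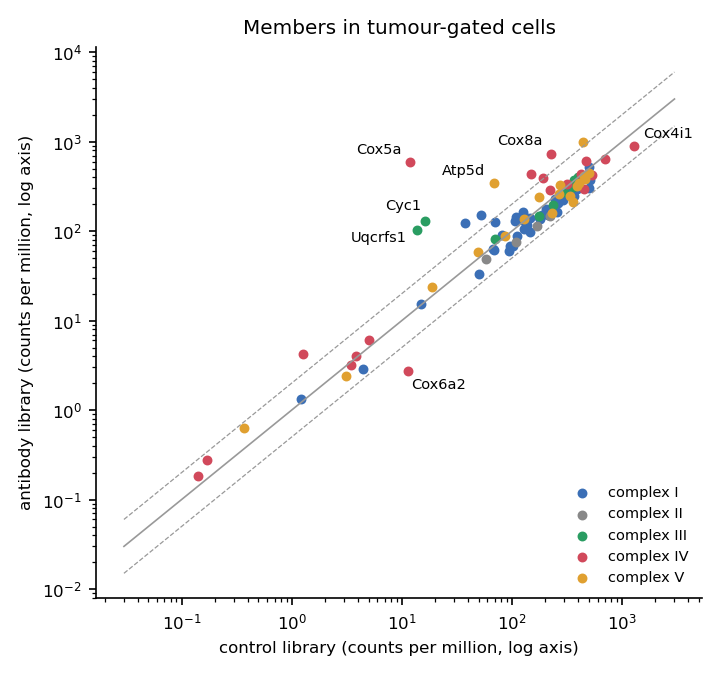
Level of each member in tumour-gated cells of the control (horizontal) and the antibody library (vertical), both in CPM on log axes, coloured by complex, with a solid line at equal levels and dashed lines at 2-fold either way. Cox5a (11.8 and 588 CPM), Cyc1 (16.4 and 131) and Uqcrfs1 (13.7 and 104) lie far above the lines, and Cox6a2 (11.4 and 2.77) below them.

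In complex IV the members differed most among themselves. The subunits Cox8a and Cox5b had 226 and 737 CPM (log2 1.70) and 149 and 441 CPM (log2 1.56) in tumour-gated cells, and Cox6a1 had 190 and 389 CPM (log2 1.04). Cox8a was at 2.84 in NK cells, 1.82 in macrophages and 1.43 in fibroblasts, and Cox5b at 1.89, 1.78 and 1.71. Against these, Cox4i1 went from 1299 to 898 CPM in tumour-gated cells (log2 -0.53, interval -0.55 to -0.52). Cox4i1 was below 0 in all 6 classes, from -0.53 in tumour-gated cells to -0.08 in neutrophils, where its interval spanned 0. Ndufa4 had 449 and 295 CPM in tumour-gated cells (log2 -0.61), and in macrophages, T cells and NK cells it was at -0.10, 0.18 and 0.13. In neutrophils, only Cox8a (16 and 105 UMIs, log2 1.78) and Cox4i1 (40 and 71 UMIs, log2 -0.08) reached 100 UMIs.

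In ATP synthase the catalytic head was uneven. Atp5b, the beta subunit, had 445 and 982 CPM in tumour-gated cells (log2 1.14), and Atp5a1, the alpha subunit that alternates with it in the same ring, had 461 and 381 CPM (log2 -0.27). Atp5d, the delta subunit of the central stalk, had 68.6 and 345 CPM (log2 2.33), and was at 2.66 in T cells, 2.15 in macrophages and 2.09 in fibroblasts. Atp5o.1, the symbol under which these tables list the peripheral stalk subunit OSCP, had 360 and 213 CPM (log2 -0.75), and was at -0.68 in macrophages and -0.60 in T cells. Atp5h, another peripheral stalk subunit, was below 0 in all 6 classes and at -0.45 in NK cells. The 3 genes for subunit c, which encode the same mature protein, divided their UMIs unequally. In tumour-gated cells Atp5g3 took 62.1% and 65.2%, Atp5g1 35.1% and 30.2% and Atp5g2 2.85% and 4.53% of the 3 together.

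Over the 37 members measured in all 6 classes, 11 were above 0 in every class and 9 below 0 in every class. Of all 1191 genes measured in all 6, 201 were above 0 and 228 below 0 in every class. Besides those named, Atp5md, Cox6c, Cox7c, Ndufb1 and Uqcrh were always above 0, and Cox7a2l and Uqcr11 always below. Among all measured members, 6 had classes on opposite sides of 0 with both intervals clear of it: Atp5j2, Atp5mpl, Cox6b1, Ndufc1, Ndufv3 and Uqcr10. The same count was not made for all genes, and classes with few UMIs have wide intervals. Ndufc1, for example, was at 0.58 in T cells and -0.19 in tumour-gated cells. Ndufv3 was at 0.27 in tumour-gated cells and -0.35 in fibroblasts.

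Paralogs known from particular tissues or from low oxygen were measured next. Cox6a2, the heart and muscle isoform of Cox6a1, was concentrated in plasmacytoid dendritic cells. Only 8 control and 67 antibody cells passed that gate, too few for library ratios, and Cox6a2 was not used in their gate. They held 31 and 438 Cox6a2 UMIs, or 1349 and 2080 CPM, and the gene took 88.6% (31 of 35 UMIs, Clopper-Pearson 95% interval 73.3 to 96.8%) and 88.5% (438 of 495, 85.3 to 91.2%) of the pair. In tumour-gated cells it had 800 and 210 UMIs, or 11.4 and 2.77 CPM (log2 -2.04, interval -2.27 to -1.82), the lowest ratio among the members there. Its share of the pair there was 5.65% and 0.705%. In macrophages the share was 3.85% and 1.69%, with 22 of 3446432 and 35 of 6519083 UMIs from Cox6a2. These shares also depend on Cox6a1, which had log2 ratios of 1.04 in tumour-gated cells and 0.97 in macrophages. The lower macrophage share thus went mainly with higher Cox6a1.

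Ndufa4l2, a paralog of Ndufa4 known to be induced by hypoxia and also known from pericytes, was highest by CPM in fibroblast-gated cells. It had 268 and 210 UMIs there, or 409 and 156 CPM (log2 -1.39, interval -1.66 to -1.12), and took 42.3% and 25.5% of the pair. The gate for fibroblasts includes Pdgfrb, which pericytes also express, and the part of pericytes in this value was not tested. Antibody endothelial cells, of which there were 20, held 16 UMIs of the gene (111 CPM, 28.6% of the pair, interval 17.3 to 42.2%), and the 24 control endothelial cells none, with 31 UMIs of Ndufa4 (an upper limit of 11.2% for the share of Ndufa4l2). Tumour-gated cells had 3.44 and 3.19 CPM and macrophages 1.45 and 0.92 CPM.

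Cox4i2, the isoform of Cox4i1 known from lung and from low oxygen, had more UMIs in macrophages than in any other class. Macrophages held 29 of 64 control and 230 of 314 antibody UMIs in kept cells (8.41 and 35.3 CPM, log2 2.05), and its share of the pair was 0.735% and 4.26%. The intervals of these shares, 0.493 to 1.05% and 3.74 to 4.83%, did not overlap. The 20 endothelial cells of the antibody library held 8 UMIs (55.4 CPM), and fibroblasts 7 and 5 UMIs (10.7 and 3.72 CPM). T cells had 0 UMIs in both libraries, where a floor of 3 UMIs is 9.59 and 1.28 CPM. In tumour-gated cells the share of Cox4i2 was 0.0131% and 0.0308%.

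Other isoforms were scarce. Cox7a1 took 1.16% and 1.38% of its pair with Cox7a2 in tumour-gated cells and 2.66% and 2.00% in macrophages. Cox7a2l, a member of the same family known for joining complexes III and IV, had 533 and 427 CPM in tumour-gated cells (log2 -0.32). Cox6b2, the testis isoform of Cox6b1, had 0 and 1 UMI in tumour-gated cells and 16 and 14 in macrophages. Cox7b2 had 0 UMIs in tumour-gated cells of either library, where a floor of 3 UMIs is 0.0426 and 0.0395 CPM. In the plot of isoform shares Cox6a2 is highest in plasmacytoid dendritic cells, and Ndufa4l2 is high in fibroblasts of both libraries and in endothelial cells of the antibody library.

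**Figure D4:**
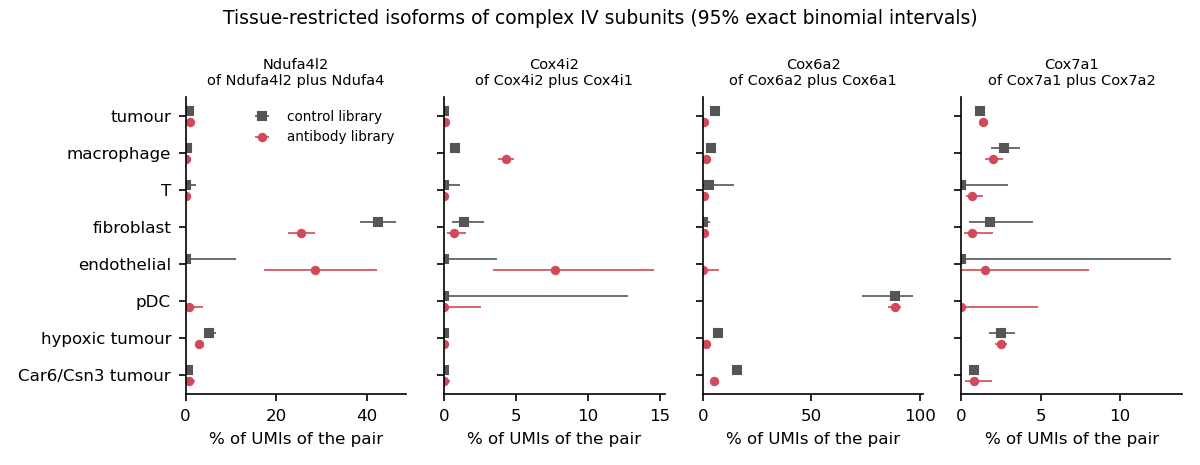
Share of the less common paralog in the UMIs of its pair (percent, horizontal axis) by cell gate (rows) for the control and the antibody library, with Clopper-Pearson 95% intervals; gates with under 20 UMIs of a pair are left out. Cox6a2 takes 88.6% and 88.5% in plasmacytoid dendritic cells, and Ndufa4l2 42.3% and 25.5% in fibroblasts and 28.6% in endothelial cells of the antibody library.

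The third comparison was among tumour-gated cells, where a state was set by UMIs of its markers and its cells were compared with all other tumour-gated cells of the same library. Each library gives its own value, and these 2 values share no cells. A state cut from marker counts is a range of cells and not a type; 464 control and 623 antibody cells lay within 25% of the hypoxic minimum, for example. The hypoxic state, gated on 10 hypoxia-induced genes such as Car9, Vegfa, Ndrg1 and Egln3, held 483 control and 1087 antibody cells. The highest and lowest members of a state are named by the mean of both libraries' log2 ratios, among the 85 members with at least 100 UMIs in each. The hypoxic members' medians were the farthest from 0 among the 6 states in both libraries. Members took 1.58% of UMIs in hypoxic and 1.93% in the other control cells, and 1.70% and 2.02% in the antibody library. The members' median log2 ratio was -0.32 and -0.30, where all genes had -0.12 and -0.14, and 76 of 88 and 77 of 89 members were below 0 (all genes 59.5% and 62.5%). With median-of-ratios scaling these medians were -0.16 and -0.15, near those of decorin-high cells under that scaling (-0.15 and -0.12). Hypoxic cells were shallower, with median UMIs of 8420 against 11389 in the control and 14845 against 18823.5 in the antibody library. With all cells thinned to 2000 UMIs the medians were -0.28 and -0.25. Macrophage marker UMIs were at 40.7 and 110 CPM in hypoxic cells, beside 41.1 and 105 CPM over all tumour-gated cells.

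By complex the medians in hypoxic cells were -0.35 and -0.33 for complex I, -0.18 and -0.26 for complex II, -0.43 and -0.37 for complex III, -0.21 and -0.21 for complex IV and -0.25 and -0.34 for complex V. By the mean of both libraries Ndufa4 was the lowest, with 245 CPM in hypoxic and 463 in other control cells (log2 -0.92), and 232 and 314 CPM in the antibody library (-0.44). The accessory complex I subunits Ndufb8 (-0.69 and -0.58) and Ndufc1 (-0.67 and -0.60) came next. Ndufa4l2 went the opposite way from Ndufa4. It had 13.3 against 2.76 CPM in the control (log2 2.28, interval 1.83 to 2.70) and 7.25 against 1.91 CPM in the antibody library (1.93, interval 1.55 to 2.31). Its share of the pair was 5.17% and 3.03% in hypoxic cells, against 0.760% and 1.07% over all tumour-gated cells.

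Ndufa4l2 was the only one of 88 members at least 2-fold higher in hypoxic cells in both libraries, against 0.986% of all genes. Ndufv3 and Cox7a1, whose promoter windows are printed above, came next. Ndufv3 had 187 against 102 CPM in the control and 188 against 111 CPM in the antibody library (log2 0.88 and 0.76). Cox7a1 had 8.23 against 4.78 CPM and 8.95 against 5.16 CPM (log2 0.80 and 0.80), and its share of the pair with Cox7a2 was 2.47% in both. These 3 genes were higher in hypoxic cells of each library, with all intervals above 0. They were named as the highest by these same ratios, so the shared direction was partly set by that choice. Glycolysis genes had a median of 1.16 and 0.88 over 15 genes, of which 6 were at least 2-fold higher in both libraries; Hk2 of that list is also a gate marker.

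**Figure D5:**
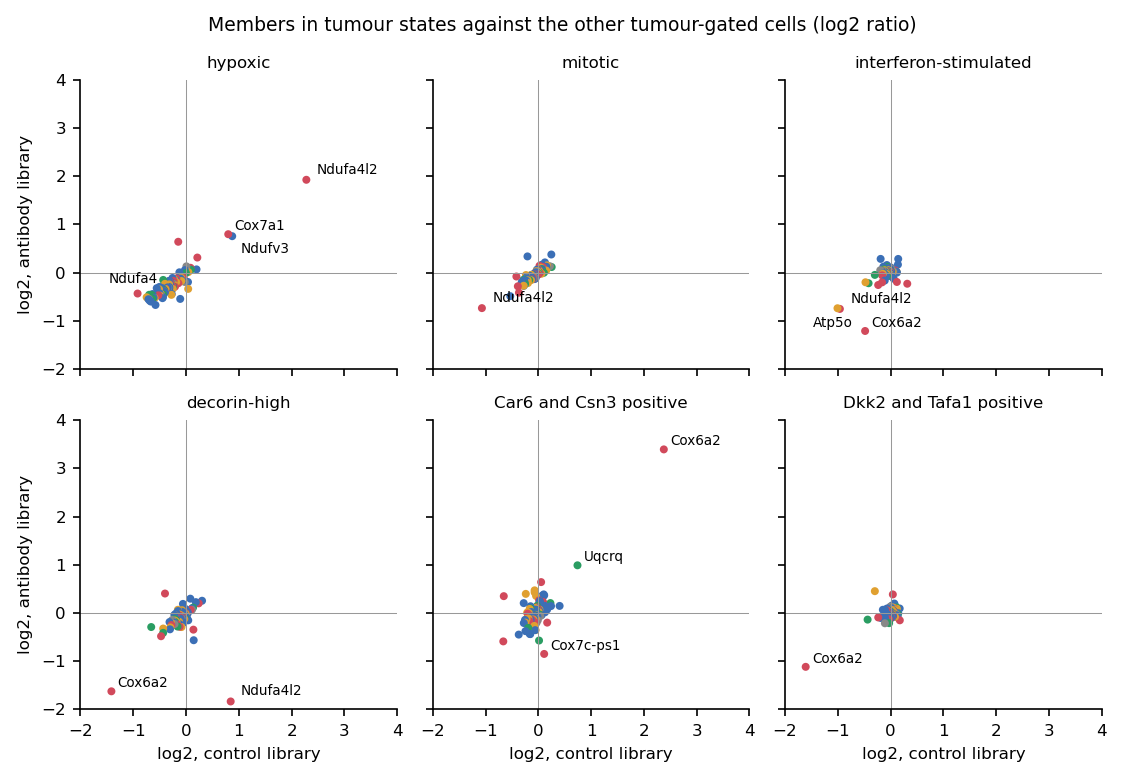
Log2 ratio of each tumour state to the other tumour-gated cells for every measured member, control (horizontal) against antibody library (vertical), in 6 panels coloured by complex. Most points of the hypoxic panel lie below 0 in both libraries with Ndufa4l2 at 2.28 and 1.93, and Cox6a2 lies at 2.38 and 3.40 in the panel of Car6 and Csn3 positive cells.

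Another state was gated on the summed UMIs of Car6, a secreted carbonic anhydrase, and Csn3, kappa casein. Cells with at least 3 such UMIs, and at least 3 per 10000 UMIs, came to 684 control and 54 antibody cells. Within 25% of that minimum per 10000 lay 489 control and 59 antibody cells, and stricter gates left 101 and 4 cells. As a whole their chain was close to that of other tumour-gated cells, with medians of -0.05 and 0.01 (all genes -0.06 and 0.01). Cox6a2 stood out, with 37.4 against 7.19 CPM in the control (log2 2.38) and 25.2 against 2.43 CPM in the antibody library (3.40). The cells of this state held 364 control and 28 antibody Cox6a2 UMIs. It was the only one of 88 members at least 2-fold higher there in both libraries, against 1.03% of all genes. In the cells outside this state Cox6a2 was also lower in the antibody library, at 2.43 CPM against 7.19. Uqcrq, a small complex III subunit, came next with 553 against 330 CPM and 610 against 308 CPM (log2 0.74 and 0.99). Cox7a1 (-0.66 and -0.59) and Ndufv3 (-0.37 and -0.45) were among the lowest, though from only 4 Cox7a1 UMIs in the antibody cells.

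Mitotic cells, 1705 and 1100 by markers such as Mki67 and Top2a, had medians of -0.08 and -0.05, next to all genes at -0.05 and -0.05. Ndufa5, an accessory complex I subunit, had the highest mean of the 85 (log2 0.25 and 0.37), followed by Cyc1 (0.25 and 0.11) and Sdhd (0.22 and 0.13). Ndufa4l2 (-1.07 and -0.74), Ndufv3 (-0.53 and -0.49) and Cox7a1 (-0.37 and -0.42) had the lowest means. Those last 3 were the 3 highest in hypoxic cells. The gates are compared with the same pool of cells, so the 2 orderings are not independent.

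In the remaining states the members' medians lay between -0.10 and 0.02. Decorin-high cells (712 and 523) had -0.10 and -0.10, where all genes had 0.07 and 0.04. There Ndufv3 was at 0.30 and 0.25, Ndufa6 at 0.18 and 0.22, Ndufa4 at -0.47 and -0.49 and Cox6a2 at -1.41 and -1.63 (28 and 7 UMIs). Ndufa4l2 went opposite ways in the 2 libraries in these cells, with log2 ratios of 0.85 and -1.84, though from only 36 and 7 UMIs. Cells gated on the sum of Dkk2 and Tafa1 UMIs (1572 and 399) had 0.02 and -0.01 (all genes 0.08 and 0.07). The lowest means were those of Cox6a2 (-1.61 and -1.12) and Uqcrq (-0.43 and -0.14), which had the highest means in Car6 and Csn3 positive cells. The antibody value of Cox6a2 came from only 9 UMIs. These 2 orderings too are not independent, since each state is compared with the other tumour-gated cells of the same library. Interferon-stimulated cells (379 and 995) had -0.05 and 0.01 (all genes -0.04 and 0.03), with Cox6a2 at -0.48 and -1.21. Ndufa4l2 was at -0.96 and -0.76 there, from 8 and 41 UMIs.

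Other genes of the pathway were taken from lists of known members. Between the libraries in tumour-gated cells, 10 of 47 assembly factors were at least 2-fold higher and 0 lower, with a median of -0.15. The highest, named after their values were seen, were Cox18, which inserts a complex IV subunit into the membrane (4.68 and 35.7 CPM, log2 2.93), and Tmem70, an ATP synthase assembly factor (4.68 and 27.8 CPM, log2 2.57). Of 12 measured mitochondrially encoded subunits, 0 differed 2-fold in either direction and the median was -0.18. Of 15 import genes 3 were at least 2-fold higher, led by the outer-membrane receptor Tomm20 (28.2 and 576 CPM, log2 4.35), with a median of -0.12. Tomm20 too was singled out after its value was seen. Citric acid cycle genes had a median of -0.26, with 1 of 16 higher and 0 lower. Electron carriers and ubiquinone genes also had -0.26, with 0 of 16 higher and 1 lower. Regulators such as Nrf1, Gabpa and Tfam had 0.03, with 2 of 16 higher and 0 lower, and glycolysis genes 0.23, with 2 of 15 higher and 0 lower. The shares of all genes at 2-fold in tumour-gated cells were those given above.

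In hypoxic cells the lists ran below 0 with the nuclear subunits, except glycolysis. The medians were -0.43 and -0.36 for mitochondrially encoded subunits, -0.47 and -0.39 for import, -0.59 and -0.44 for electron carriers and ubiquinone, -0.21 and -0.24 for the citric acid cycle and -0.18 and -0.26 for assembly factors. All genes stood at -0.12 and -0.14 in the same comparison. Regulators were at -0.30 and -0.02.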

How the data were processed

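Dissociated tumour cells went through a 3' single-cell library kit from 10x Genomics, according to the labels' protocols. The deposited values are UMI counts, 1 per gene and cell barcode. The submitters' processing notes name Cell Ranger 7.2.0, build mm10 and Seurat as what the authors used; their settings are not given in the sources used here. A gene listed in only 1 table was taken as 0 in the other.

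Cells needed 200 genes, 500 UMIs and under 20% mitochondrial UMIs. Doublets were scored with Scrublet (scanpy 1.11.5) and the highest-scoring cells removed, up to 0.8% per 1000 cells: 1537 control (11.1%) and 1164 antibody cells (9.65%). No correction for free RNA was made.

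Host classes needed at least 3 UMIs of at least 2 markers, and per 10000 UMIs at least 20 (T, NK, plasmacytoid dendritic, endothelial), 50 (macrophage) or 100 (neutrophil, fibroblast); cells in several host gates were left out. Tumour-gated cells needed 1 keratin UMI, no Y-linked UMI, under 10 host marker UMIs per 10000, and under 100 of fibroblast markers. States needed 20 marker UMIs per 10000 (mitotic, hypoxic, interferon, decorin), 3 (Car6, Csn3) or 5 (Dkk2, Tafa1). Each also needed at least 3 marker UMIs, and the mitotic, hypoxic and interferon states at least 3 different markers. Classes with 40 cells in each library were compared, a minimum set after the cell numbers were seen, to keep NK cells.

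Counts were summed per class and divided by the class total. Ratios used a prior count of 0.5 and a minimum of 20 UMIs, and have exact conditional binomial 95% intervals. Levels have Poisson intervals and shares Clopper-Pearson intervals. No test was possible with 1 library per group. Named genes were Cox5a, the paralog pairs, the defining subunits and, among members with at least 100 UMIs, the 3 highest and 3 lowest per class and per state; other members named were chosen after their values were seen. The values of 1 member are not reported here. The members, lists and gates were chosen with earlier results of these data known. The ratio step was tested on simulated counts. Software was scipy 1.17.1, numpy 2.4.6, anndata 0.12.19, pandas 2.3.3 and matplotlib 3.10.9 under Python 3.11.15. Alternatives were no doublet removal, stricter filtering of cells (1000 UMIs, 500 genes, mitochondrial share under 10%), stricter gates, cells thinned to 2000 UMIs, totals without mitochondrial, ribosomal protein and haemoglobin genes, median-of-ratios scaling, count minimums of 0 and 100, a prior count of 2 and leaving out Cox5a. Leaving out pseudogene rows and a tumour gate without keratins (cells of at least 3000 UMIs) were added after seeing the data.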

Additional observations from a re-analysis of the deposited data

How the results depend on the processing

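No paired analysis was possible because each group has 1 library. The log2 ratio of Cox5a stayed far above 0 under every alternative that gave a value; in tumour-gated cells it was 5.90 thinned and 5.79 with median-of-ratios scaling. That scaling, which takes out the shift of all genes (a median of -0.16 in tumour-gated cells), gave members' medians of 0.032 in tumour-gated cells, 0.17 in T cells and -0.042 in fibroblasts. Without a count minimum the medians were -0.086 in T cells, -0.36 in NK cells and -0.14 in neutrophils, and that of complex IV in neutrophils turned to -0.077. Neutrophils gave -0.26 without doublet removal and 0.85 with a minimum of 100. Members at least 2-fold lower without a count minimum numbered 4 (tumour-gated), 3 (macrophage), 17 (T), 27 (NK), 8 (neutrophil) and 17 (fibroblast), and higher ones in neutrophils 21. With a minimum of 100 these were 0 lower in macrophages, 4 higher and 0 lower in NK cells and 1 higher in neutrophils. Lower members in macrophages were 0 without doublet removal, with stricter gates, thinned and with median-of-ratios scaling. Without doublet removal lower members were 3 in NK cells, 7 in neutrophils and 1 in fibroblasts. Thinned cells gave 1 lower in T cells and 4 in fibroblasts, and median-of-ratios scaling 1 in fibroblasts.

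The hypoxic median kept its sign: -0.25 in the control with totals without mitochondrial, ribosomal protein and haemoglobin genes, -0.39 in the antibody library with stricter gates, and -0.16 and -0.15 with median-of-ratios scaling. Other state medians under that scaling were -0.020 and -0.0025 (mitotic, whose thinned antibody value was -0.024), 0.0029 and -0.0083 (interferon), -0.15 (decorin, control), 0.026 (Car6 and Csn3, control) and -0.059 and -0.070 (Dkk2 and Tafa1). Stricter gates gave -0.0080 and -0.036 (interferon), -0.087 (Car6 and Csn3, control) and -0.053 (Dkk2 and Tafa1, control, -0.13 thinned). The other totals gave -0.072 and -0.028 (interferon), -0.019 (Car6 and Csn3, control) and -0.013 (Dkk2 and Tafa1, control), and the tumour gate without keratins -0.011 (Car6 and Csn3, control). Depth limits neutrophils and NK cells: too few were left for a value under the stricter cell filter and thinning, and for NK cells under stricter gates.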
